A study of Mus musculus with 24 samples.

Results

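The mRNAs of 9 enzymes and regulators of glycolysis and of glucose transporter 1 were followed in cultured mouse islet cells that received a tRNA fragment inhibitor and then palmitate. The 10 genes were Slc2a1 (glucose transporter 1), Gpi1, Pfkl, Pfkm, Pfkfb2, Aldoa, Tpi1, Pgk1, Eno1 and Pkm, picked by their symbol among the 41549 genes of the table. Of these, 9 were listed under exactly that symbol, and Aldoa was taken from the first of its 2 entries by its Ensembl identifier. All 10 were among the 15916 genes that passed the filter on low counts and were tested, with 480 reads for Slc2a1 in the library where it was lowest and 25807 reads for Pkm where it was highest.

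Islets of male and female wild-type C57BL/6NRj mice aged 12 to 14 weeks were dispersed, and the cells were transfected with 50 pmol of an antisense oligonucleotide (ASO). αGlu is a locked nucleic acid inhibitor of 5'tRF Glu(CTC), the 5' fragment of tRNA Glu(CTC), and Ctr is the inhibitor control. The cells were then kept for 48 h in medium with 1% serum and either 0.5 mM palmitate (PA) bound to fatty-acid-free bovine serum albumin or 0.75% of the albumin alone (BSA). Every combination of ASO and medium had 6 libraries, which makes 4 groups (αGlu PA, αGlu BSA, Ctr PA, Ctr BSA), with 3 libraries in each of 2 batches that the labels number without saying what a batch was. Every group thus held transfected, dispersed cells of a mixed islet preparation, and the ASO could reach any cell type in it. The study's reporting text has the groups of a biological replicate come from the same animal, but the labels do not tie libraries to animals, so the libraries were treated as independent. The levels of the targeted fragment were not analysed here, since the libraries were made from mRNA.

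The inhibitor is shown with the stretch it was designed against, because the ASO comparisons rest on it. The lower line gives the 21 bases listed as its target, a part of the fragment, which the study describes as longer. Capitals mark the 20 bases of this stretch that pair with the ASO, starting at base 2.
αGlu ASO: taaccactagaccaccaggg
5' fragment: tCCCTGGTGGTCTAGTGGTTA

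Glycolysis turns glucose into pyruvate in the cytosol. Glucose transporters let the sugar into the cell, hexokinases trap it, and the following enzymes rearrange, split and oxidise it. Beta cells use this route as a glucose sensor: the ATP made from pyruvate closes potassium channels and starts insulin release. Mouse beta cells take up glucose mainly through Slc2a2, while Slc2a1, Hk1 and Hk2 are the usual forms of other cell types, and Ldha and the lactate exporters are kept low. Many glycolytic genes are targets of HIF-1, the factor that builds up at low oxygen and binds a core of the letters ACGTG or GCGTG.

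Total counts per library ranged from 18214719 to 35001979. They were lowest in S1 (Ctr BSA), which also had the lowest scaling factor, 0.853. The summed level of 10 beta cell markers lay between 84084 and 152138 CPM (read counts scaled to the size of the library), and none of the 10 was at 0 in any library, as an islet preparation should have it. Acinar markers, from the digestive part of the pancreas, summed to 3220 to 24113 CPM in batch 1 and to 237 to 628 CPM in batch 2. Of the libraries, S23 (Ctr PA) had the lowest level of its group for 8 of the 10 genes, S21 (Ctr BSA) for 6, and S7 (Ctr PA) had the highest level for 7. In bulk libraries, fewer cells of a type and less RNA per cell cannot be told apart.

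Per length, enzymes of the later steps were the most abundant. In the deposited TPM, which are scaled to transcript length and library size, Aldoa, the aldolase that splits fructose 1,6-bisphosphate, had a median of 492 over the 24 libraries, and Pkm, the muscle-type pyruvate kinase of the last step, 433. Aldoa stood above Pkm in 24 of 24 libraries. Pgk1, a kinase that makes ATP, followed at 166, Eno1, the widely used enolase, at 115, Tpi1, the triose phosphate isomerase, at 96.5 and Gpi1, the glucose 6-phosphate isomerase, at 88.1.

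The regulated step at the top was lower. Pfkm and Pfkl, the muscle-type and liver-type phosphofructokinases, had medians of 53.0 and 17.3 TPM. Pfkfb2, which makes and removes fructose 2,6-bisphosphate, the activator of phosphofructokinase, had 55.0 TPM. Its order against Pfkm was not fixed, since Pfkfb2 was higher in 15 of 24 libraries. Slc2a1 had 26.9 TPM and the widest spread of the 10 genes, from 15.1 to 52.7 TPM, against a mean of 170 ± 62.2 TPM (SD, n = 6) in Ctr BSA for Slc2a2, the main beta cell transporter. The 10 genes together made up 1452 ± 120 TPM in Ctr BSA, 1562 ± 198 TPM in Ctr PA, 1536 ± 92.6 TPM in αGlu BSA and 1610 ± 84.7 TPM in αGlu PA (SD, n = 6).

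**Figure D1:**
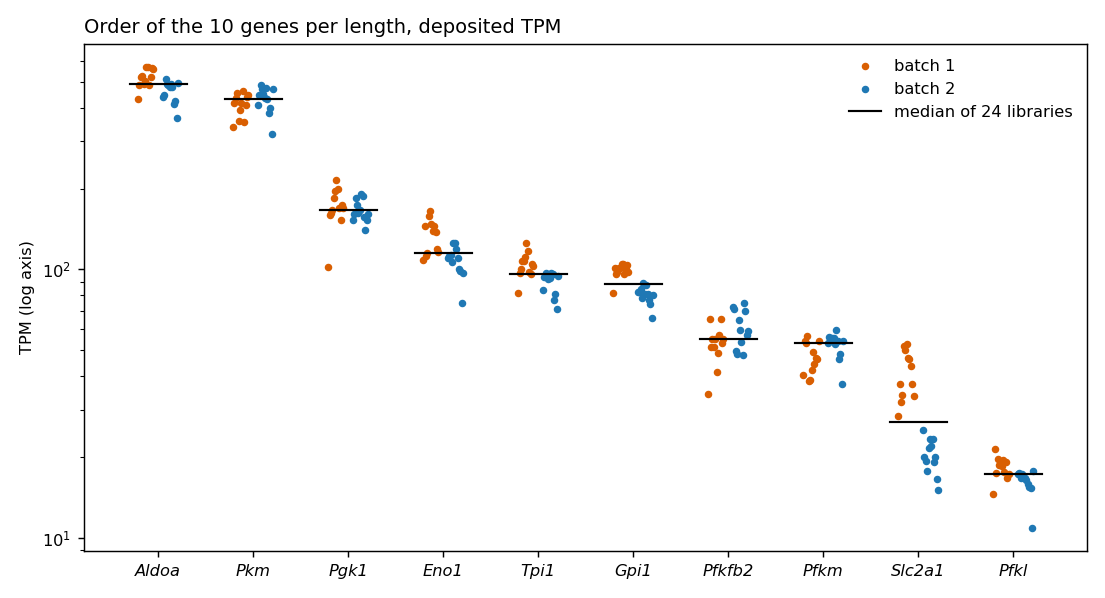
Deposited TPM of the 10 genes on a log axis, ordered by median; each point is 1 of 24 libraries, coloured by batch, and the line is the median over the 24. Aldoa (492) and Pkm (433) stand above the rest, Slc2a1 (26.9) and Pfkl (17.3) are lowest, and the points of Slc2a1 part by batch.

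PA left most of the 10 genes close to their level in BSA, much as it did other genes of like abundance. The median absolute log2 fold change of the 10 was 0.111 in Ctr and 0.131 in αGlu. Over the 5156 genes at least as abundant as the lowest of the 10 it was 0.133 and 0.131. In cells with Ctr, 1 of 10 genes passed an adjusted p of 0.05 (edgeR quasi-likelihood test with batch as a term, Benjamini-Hochberg adjusted over all genes tested), where 29.5% of all genes did. In cells with αGlu, 1 of 10 passed, where 28.3% of all genes did. The gene was Pfkfb2 in both, and it was lower with PA. None of the 10 reached the threshold the study used, a change above 2-fold with an unadjusted p below 0.05, which 5.87% of all genes met in Ctr and 5.52% in αGlu.

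Pfkfb2 (chr1:130689182-130729253, minus strand, GRCm38) is the 6-phosphofructo-2-kinase form best known from heart and also found in islets. Its lowest, median and highest levels were 119.4, 156 and 202 CPM in Ctr BSA and 107, 132 and 164 CPM in Ctr PA. In αGlu BSA they were 134, 161 and 198 CPM, and in αGlu PA 119.6, 133 and 156 CPM. The groups overlapped, with the highest library of each from batch 2. For 0 of the 10 genes were PA and BSA apart, while 5.82% of all genes in Ctr and 8.12% in αGlu had PA and BSA libraries that did not overlap. With PA, Pfkfb2 stood at 0.845 of its BSA level in Ctr (log2 fold change -0.24, SE 0.08, adjusted p = 0.026 in edgeR) and at 0.817 of it in αGlu (-0.29, SE 0.08, adjusted p = 0.0087).

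Within batch 2, the 3 Ctr PA libraries (134 to 164 CPM) lay below the 3 Ctr BSA libraries (167 to 202 CPM), and the 3 αGlu PA libraries (130 to 156 CPM) below the 3 of αGlu BSA (161 to 198 CPM). Within batch 1 the ranges overlapped, 107 to 130 CPM with PA against 119.4 to 145 CPM in Ctr and 119.6 to 137 CPM against 134 to 161 CPM in αGlu. The within-batch log2 fold changes were -0.11 in batch 1 and -0.37 in batch 2 for Ctr, and -0.21 and -0.38 for αGlu. In the deposited TPM, Pfkfb2 did not fall in batch 1 of Ctr, with 47.7 ± 11.8 in BSA and 48.6 ± 6.21 in PA (SD, n = 3). In batch 2 of Ctr it had 70.8 ± 5.41 and 53.5 ± 3.77 TPM. The difference of the PA response between batches, averaged over the ASOs, was -0.21 (95% confidence interval -0.43 to 0.02, adjusted p = 0.854 in edgeR).

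The call of Pfkfb2 in Ctr was close to the threshold. It was lost when any one of 5 libraries was left out (S7, S13, S15, S19 or S21, with adjusted p from 0.061 to 0.0802 in edgeR), with batch 1 alone (adjusted p = 0.5) and with the compared groups alone (adjusted p = 0.0521), while the log2 fold change stayed between -0.29 and -0.19 as libraries were left out one by one. It was also lost with library totals alone (adjusted p = 0.0874) and without the batch term (adjusted p = 0.157). In αGlu it held without each library in turn and was lost without the batch term (log2 fold change -0.30, adjusted p = 0.0984 in edgeR) and with batch 1 alone (-0.22, adjusted p = 0.197).

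None of the other 9 genes passed the threshold in either ASO. At the entry, Slc2a1 (chr4:119108711-119137983, plus strand, GRCm38) had lowest, median and highest levels of 24.9, 39.9 and 61.7 CPM in Ctr BSA, 22.9, 32.2 and 65.4 CPM in Ctr PA, 25.3, 36.3 and 59.4 CPM in αGlu BSA and 19.3, 34.8 and 55.4 CPM in αGlu PA. All 4 groups overlapped. The log2 fold change with PA was -0.17 (95% confidence interval -0.43 to 0.09, adjusted p = 0.328 in edgeR) in Ctr and -0.18 (-0.44 to 0.08, adjusted p = 0.307) in αGlu. The value in Ctr rested in part on single libraries of Ctr PA, with -0.29 (adjusted p = 0.0693 in edgeR) without S7 and -0.10 without S3. A fall of Slc2a1 to 0.743 of its level would still lie within the interval in Ctr.

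Gpi1 was nearly level, at 212 ± 24.8 CPM in Ctr BSA and 207 ± 25.6 CPM in Ctr PA (SD, n = 6), with log2 fold changes of -0.03 in Ctr and 0.01 in αGlu. Of the 2 phosphofructokinases, Pfkl had 41.5 ± 2.92 CPM in Ctr BSA and 38.1 ± 5.18 CPM in Ctr PA, and 42.4 ± 2.05 CPM in αGlu BSA and 42.1 ± 2.10 CPM in αGlu PA. In Ctr the log2 fold change was -0.12 (adjusted p = 0.176 in edgeR) and -0.06 without library S23, where it was lowest at 28.6 CPM. Pfkm had 57.9 ± 8.77 CPM in Ctr BSA, 58.1 ± 8.98 CPM in Ctr PA, 58.6 ± 9.12 CPM in αGlu BSA and 63.99 ± 5.41 CPM in αGlu PA, with log2 fold changes of 0.01 and 0.13.

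In the later steps, the 2 genes that came nearest to the threshold in Ctr after Pfkfb2 went opposite ways. Pgk1 had lowest, median and highest levels of 109.8, 129 and 141 CPM in Ctr BSA and 123, 141 and 170.5 CPM in Ctr PA, which is 0.17 on the log2 scale (SE 0.08, adjusted p = 0.109 in edgeR). In αGlu it had 115, 127 and 149 CPM with BSA and 123, 141 and 157 CPM with PA, or 0.12 on the log2 scale (adjusted p = 0.258). Without S7, Pgk1 in Ctr had 0.11 (adjusted p = 0.319 in edgeR). Over both batches together, the PA and BSA libraries of Pgk1 overlapped in both ASOs. Within batch 2, the Ctr PA libraries (135 to 155 CPM) lay above the Ctr BSA libraries (123 to 130 CPM). In batch 1 of Ctr and in both batches of αGlu they overlapped.

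Eno1 had lowest, median and highest levels of 199.6, 257 and 290.1 CPM in Ctr BSA and 159, 219 and 281 CPM in Ctr PA, which is -0.19 on the log2 scale (SE 0.09, adjusted p = 0.122 in edgeR). Leaving out S7, the highest of Ctr PA, took it past the threshold (log2 fold change -0.25, adjusted p = 0.0419), and leaving out S23, the lowest, gave -0.13 (adjusted p = 0.282). In αGlu the levels were 207, 250.3 and 300.1 CPM with BSA and 189.9, 216 and 254 CPM with PA, or -0.18 on the log2 scale (adjusted p = 0.144).

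Aldoa had 499 ± 53.8 CPM in Ctr BSA and 521 ± 59.7 CPM in Ctr PA, and 489.7 ± 23.5 CPM in αGlu BSA and 535 ± 21.9 CPM in αGlu PA (SD, n = 6). Tpi1 had 92.2 ± 10.999, 97.1 ± 14.7, 92.5 ± 5.96 and 99.7 ± 4.99 CPM in the same order. Pkm had 714 ± 85.8, 763 ± 92.6, 737 ± 68.9 and 811 ± 59.2 CPM. Their log2 fold changes with PA lay between 0.06 and 0.10 in Ctr and between 0.11 and 0.14 in αGlu, none past the threshold. In Ctr these 3 values moved with single libraries. Without S23, Pkm passed the threshold at 0.16 (adjusted p = 0.0417 in edgeR), and Aldoa had 0.11 and Tpi1 0.12. Without S7, Aldoa had 0.03 and Tpi1 0.01, and without S21 both had 0.04. Without S15 Pkm had 0.06 and Aldoa 0.03. Without S1, the highest Aldoa library of Ctr BSA in CPM but not in TPM, Aldoa had 0.12 and Pkm 0.16.

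Over the 10 genes, the median log2 fold change was -0.01 in Ctr and 0.06 in αGlu, beside 0.01 and 0.01 over all genes tested, and the confidence bounds of all 10 lay between -0.43 and 0.33 in Ctr and between -0.46 and 0.31 in αGlu. The sign was the same in both batches for 9 of 10 genes in each ASO. The count depended on the fit. In Ctr 0 of 10 passed with library totals alone, without the batch term, with the compared groups alone or with batch 1 alone. In αGlu 0 passed without the batch term or with batch 1 alone, and 3 (Pfkfb2, Aldoa and Pkm) with the compared groups alone. With 2 surrogate variables estimated from the libraries added to the fit, 5 of 10 genes passed in each ASO, Pfkfb2 lower and Aldoa, Tpi1, Pgk1 and Pkm higher, with log2 fold changes of the 4 from 0.19 to 0.30 in Ctr and from 0.14 to 0.23 in αGlu.

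**Figure D2:**
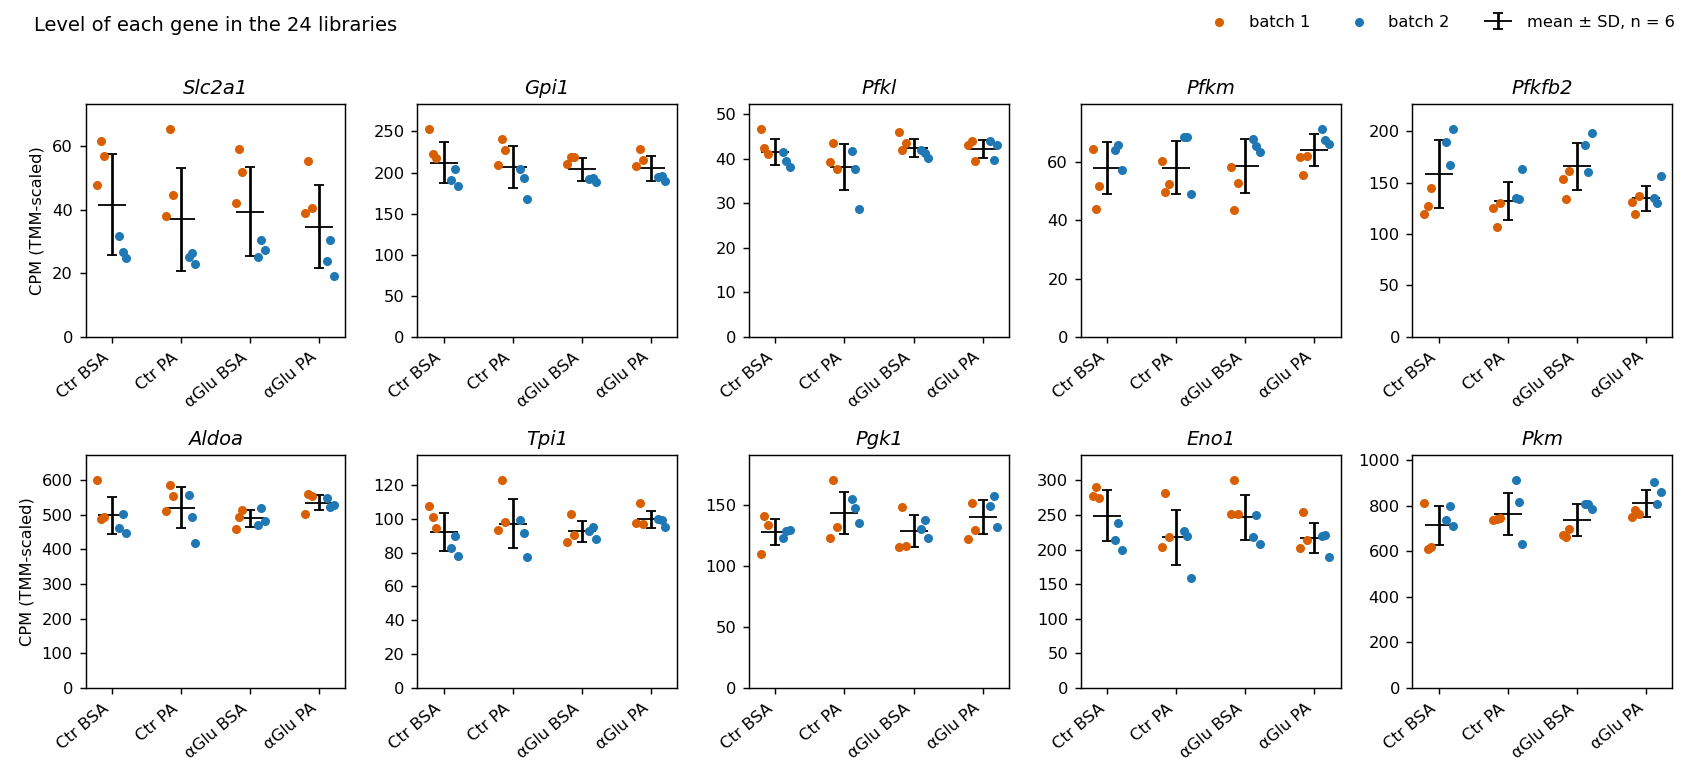
TMM-scaled CPM of each of the 10 genes (1 panel a gene, axis from 0) in the 4 groups; each point is 1 library, coloured by batch, and the bar is the mean ± SD of 6. The groups overlap in every panel, Slc2a1 and Gpi1 part by batch, and library S23 is the lowest Ctr PA point for 8 genes, at 28.6 CPM for Pfkl.

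The inhibitor altered none of the 10 genes past the threshold. In BSA, the log2 fold changes of αGlu against Ctr ran from -0.07 (Slc2a1) to 0.08 (Pfkfb2), with confidence bounds from -0.33 to 0.24. By edgeR 0 of 10 passed, 0 had an unadjusted p below 0.05, and DESeq2 called 0. Of all genes, 0% passed the adjusted threshold; 437 had an unadjusted p below 0.05, and DESeq2 called 8 with adjustment and 470 without.

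In PA, the log2 fold changes of αGlu against Ctr ran from -0.08 (Slc2a1) to 0.15 (Pfkl), with bounds from -0.34 to 0.32. By edgeR and by DESeq2 0 of 10 passed, as did 0% of all genes by edgeR (521 at an unadjusted p below 0.05; DESeq2 called 30 with adjustment and 566 without). Pfkl had the lowest p of the 10, at 0.0382 unadjusted in the edgeR fit and 0.995 adjusted. Without S23 its log2 fold change fell to 0.08. The 2 ASO comparisons share their libraries with the PA comparisons and are not independent of them.

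By batch, the direction of the ASO difference in BSA was not kept. Batch 1 had 8 of 10 genes below 0 and batch 2 had 7 of 10 above 0, and 3 of 10 had the same sign in both. Tpi1 was the widest case, with -0.12 in batch 1 and 0.14 in batch 2. The test of the difference between the 2 PA responses gave -0.05 (Pfkfb2) to 0.12 (Pfkm) on the log2 scale, with bounds from -0.38 to 0.38 and 0 of 10 genes called by edgeR or DESeq2 (0 at an unadjusted p below 0.05), as were 0% of all genes by edgeR (311 at an unadjusted p below 0.05; DESeq2 called 0 with adjustment and 340 without).

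**Figure D3:**
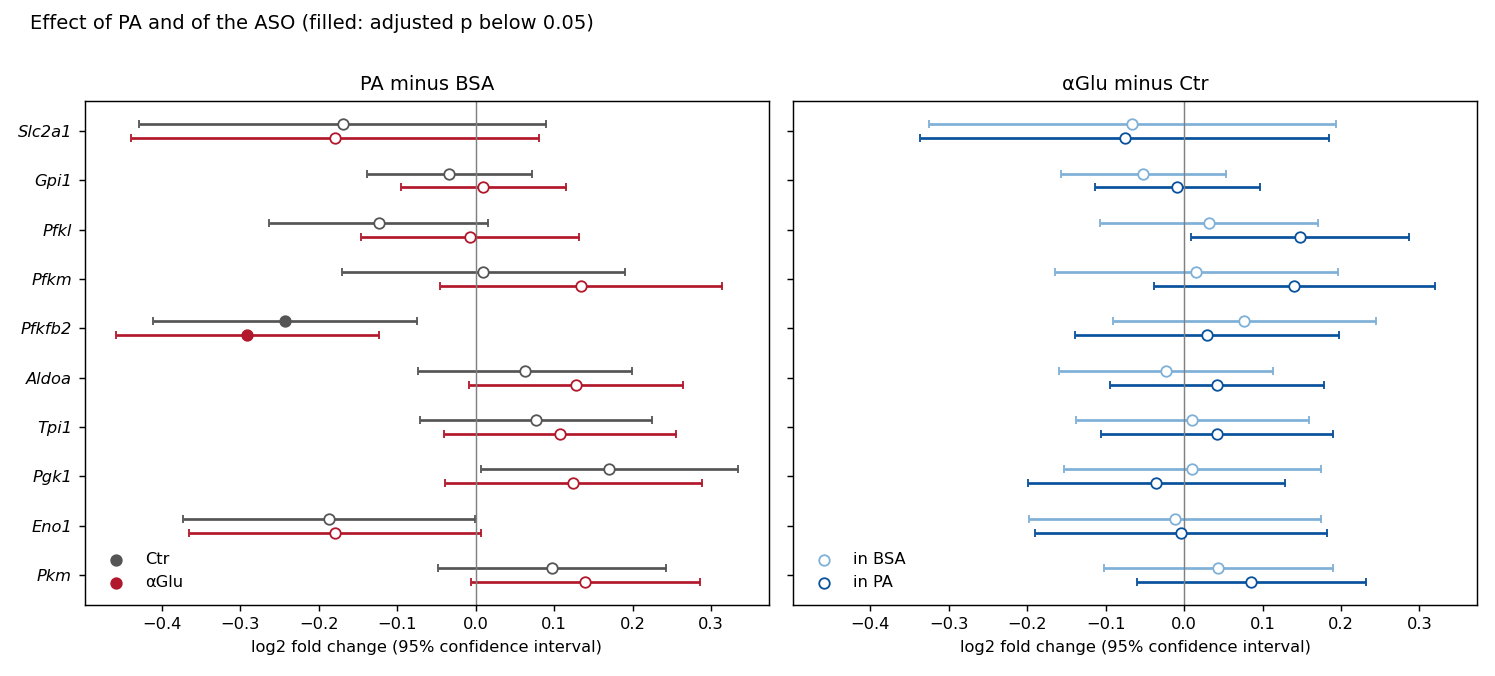
Log2 fold change with 95% confidence interval for each gene, PA minus BSA in both ASOs on the left and αGlu minus Ctr in BSA and PA on the right; filled points passed an adjusted p of 0.05. Pfkfb2 with PA (-0.24 in Ctr, -0.29 in αGlu) carries the filled points, and all other points are open.

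The batches differed more than the treatments for Slc2a1. Over the 12 libraries of batch 1, Slc2a1 had a lowest, median and highest level of 37.96, 49.9 and 65.4 CPM, and over the 12 of batch 2, 19.3, 25.8 and 31.9 CPM. The batches did not overlap for Slc2a1, and batch 2 stood at 0.523 of batch 1 (log2 fold change -0.94, SE 0.09, adjusted p = 5.73e-09 in edgeR). The difference was seen in each group on its own, from -0.997 in Ctr BSA to -0.874 in αGlu PA on the log2 scale. Adding 2 surrogate variables, which took 89.1% of the variance of batch, left a batch term of 0.155 for Slc2a1.

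In all, 7 of 10 genes differed between batches where 51.3% of all genes did (26% higher and 25.3% lower in batch 2), a share not far from that of the table. The 4 genes lower in batch 2 were Slc2a1, Eno1 (-0.23), Gpi1 (-0.22) and Tpi1 (-0.14). The 3 higher were Pfkfb2 (0.29), Pfkm (0.24) and Pkm (0.16). Gpi1 also did not overlap, with 208 to 252 CPM in batch 1 and 167 to 204 CPM in batch 2. Of all genes, 6.87% had batches that did not overlap. Pfkl (-0.09), Aldoa (-0.08) and Pgk1 (0.05) did not pass. The PA response did not differ between batches for any of the 10 past the threshold, with 0 of 10 called by edgeR where 0.0565% of all genes were, and 0 of 10 at an unadjusted p below 0.05.

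Markers of several other cell types moved with the batch, where 51.3% of all genes differed. In some lists fewer markers passed the threshold. Of 10 endothelial markers 5 were lower in batch 2, and of 9 fibroblast and stellate cell markers 0 differed. Of 9 macrophage markers 1 was higher and 1 lower, and of 10 Schwann cell and glia markers 2 were higher and 1 lower. The median log2 fold changes of these lists were -0.68, -0.18, 0.58 and 0.93 in the same order. Those of the ductal list (-0.60) and of the alpha, delta and PP list (-0.55) were of like size. All 10 acinar markers were lower in batch 2 (median log2 fold change -4.40), with none at 0 in any library, 6 of 8 ductal markers were lower and 1 higher, and 7 of 10 markers of alpha, delta and PP cells were lower and 1 higher. All 10 beta cell markers were higher (median 0.54), with a summed level of 84084 to 134035 CPM in batch 1 and 110426 to 152138 CPM in batch 2. Their part in the batch difference of Slc2a1 and the other genes was not tested, and the batch and the makeup of its cells cannot be told apart.

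**Figure D4:**
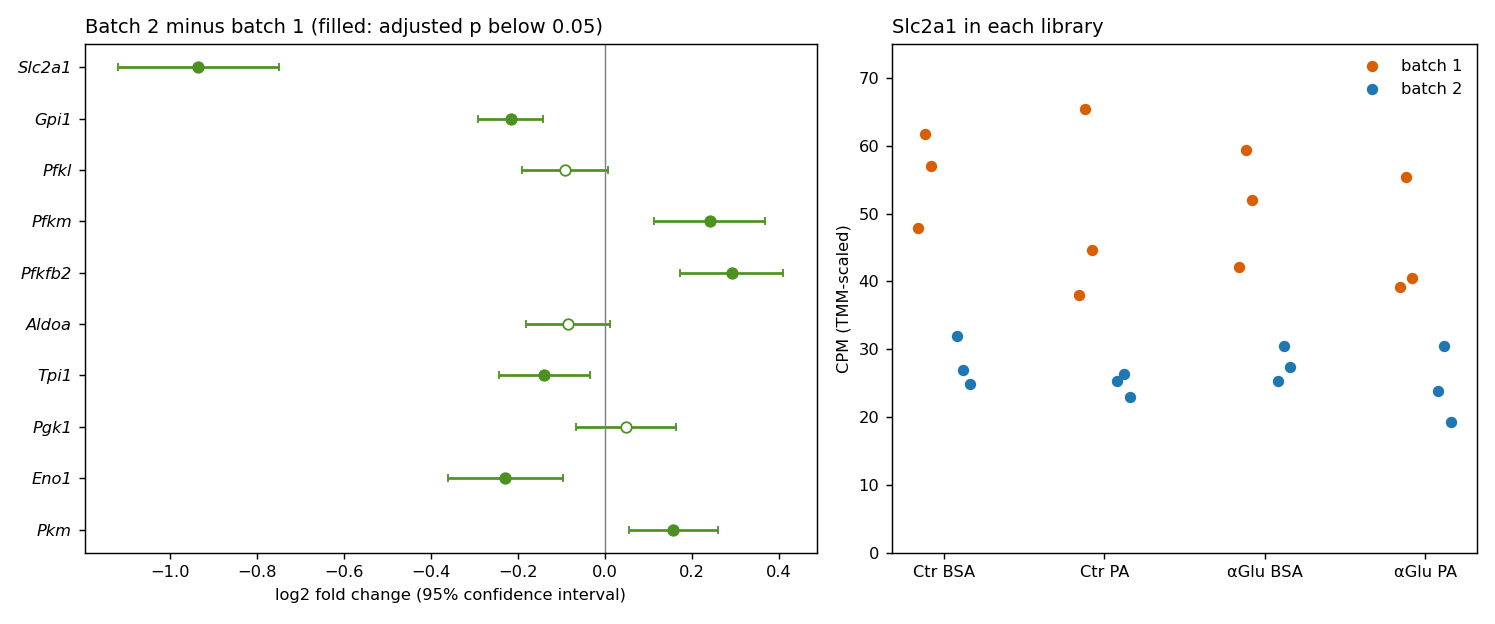
Left, log2 fold change of batch 2 against batch 1 with 95% confidence interval for each gene (filled: adjusted p below 0.05); right, Slc2a1 in each library in CPM, axis from 0, coloured by batch. Every batch 1 point of Slc2a1 (37.96 CPM and above) lies above every batch 2 point (31.9 CPM and below).

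Because 4 of the genes were lower in batch 2 together, the stretch before their start sites was read. The lines give bases 250 to 31 before the RefSeq start site (GRCm38.p6) of 3 of these 4 genes, the 2 without batch overlap and Eno1, and capitals mark ACGTG or GCGTG on either strand.
Slc2a1 (chr4:119108495-119108714, plus strand): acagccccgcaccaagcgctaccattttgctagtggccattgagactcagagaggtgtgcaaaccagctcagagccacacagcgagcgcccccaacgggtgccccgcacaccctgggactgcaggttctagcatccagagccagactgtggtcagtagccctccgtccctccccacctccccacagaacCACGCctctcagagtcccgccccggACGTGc
Gpi1 (chr7:34230367-34230586, minus strand): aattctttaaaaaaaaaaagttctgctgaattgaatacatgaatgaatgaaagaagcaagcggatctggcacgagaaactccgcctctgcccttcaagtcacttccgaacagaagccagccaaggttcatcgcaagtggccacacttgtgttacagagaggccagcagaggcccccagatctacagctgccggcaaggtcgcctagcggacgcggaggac
Eno1 (chr4:150236458-150236677, plus strand): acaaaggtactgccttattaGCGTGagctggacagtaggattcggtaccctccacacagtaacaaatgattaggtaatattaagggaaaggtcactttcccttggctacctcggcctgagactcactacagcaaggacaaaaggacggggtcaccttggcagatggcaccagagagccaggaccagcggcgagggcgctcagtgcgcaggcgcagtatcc

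The core stood 61 and 36 bases before the start of Slc2a1, where the first is GCGTG read on the other strand, and 230 bases before that of Eno1. It was not found in this window of Gpi1 or Tpi1. Of the 3 genes higher in batch 2, Pfkfb2 had a match 68 bases before the nearest RefSeq start, which lies 13205 bases from the annotated 5' end of the gene, and Pfkm the palindrome CACGTG, which holds ACGTG on both strands, and Pkm had none. Over 250 bases before the start, 6 of 10 genes held ACGTG or GCGTG, beside 38.6% of 32851 RefSeq windows of that length. Pgk1, which did not differ between batches, held ACGTG 150 and 131 bases before its start. The GC box GGGCGG was present in 5 of 10 genes and in 32.7% of all windows. These matches describe letters alone.

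Lists of neighbouring genes are given by their counts, beside the 29.5% of all genes that passed with PA in Ctr and the 28.3% in αGlu, and by their median log2 fold change, beside 0.01 over all genes in both ASOs. Of 15 other glycolytic enzymes tested and reported here, 3 rose and 2 fell in Ctr, and 3 rose and 2 fell in αGlu, shares near those of all genes (medians 0.01 and 0.11). Those that rose were isoenzymes that stand beside a gene of the 10. Eno2, the neuronal enolase, went from 30.6 ± 5.21 to 44.6 ± 5.80 CPM in Ctr (SD, n = 6), which is 0.55 on the log2 scale (adjusted p = 3.82e-06 in edgeR), and rose by 0.56 in αGlu. Pklr, the liver and red cell pyruvate kinase, rose by 0.39 and 0.47, and Aldoc, the brain aldolase, by 0.35 and 0.46. Per length they stayed below their partners, with 26.6 ± 3.65 TPM for Eno2 against 114 ± 23.4 TPM for Eno1 in Ctr PA.

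Those that fell were Hk1 and Hk2, hexokinases of the first step. Hk1 had a log2 fold change of -0.47 in Ctr and -0.80 in αGlu, and Hk2 of -0.92 and -1.04. Hk2 was lowly expressed, with 5.68 ± 3.11 CPM in Ctr BSA and 3.33 ± 2.49 CPM in Ctr PA. Gapdh, often used as a reference gene, had 0.09 and 0.14, neither past the threshold.

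Among 9 other glucose transporters tested, 2 rose in Ctr, and 2 rose and 1 fell in αGlu, where 29.5% and 28.3% of all genes passed (medians 0.01 and -0.06). Slc2a6, a transporter of lysosomal membranes, went from 2.61 ± 1.202 to 6.80 ± 3.28 CPM in Ctr, which is 1.36 on the log2 scale, and rose by 1.18 in αGlu. Slc2a13, a myo-inositol transporter, rose by 0.66 and 0.55. Slc2a3 fell by 0.85 on the log2 scale in αGlu and had -0.36 in Ctr (adjusted p = 0.251 in edgeR). Slc2a2 had 0.01 in Ctr and -0.06 in αGlu, both with an adjusted p above 0.7 (0.957 and 0.762 in edgeR).

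Around Pfkfb2, 4 of 10 genes of the fructose 2,6-bisphosphate and reverse steps rose in Ctr and 5 in αGlu, and 0 fell, where 29.5% and 28.3% of all genes passed in either direction (medians 0.12 and 0.19). Fbp2, a fructose 1,6-bisphosphatase that runs the step against phosphofructokinase, went from 0.901 ± 0.323 to 6.55 ± 1.67 CPM in Ctr (SD, n = 6), with log2 fold changes of 2.83 and 2.92. Pck2 (0.19 and 0.26), G6pc2 (0.29 and 0.23) and G6pc3 (0.27 and 0.30), enzymes of the reverse route and of glucose 6-phosphate removal, rose less. Pfkfb3, the inducible sister of Pfkfb2, had -0.03 and -0.08, with a spread over libraries from 8.503 to 32.2 CPM in Ctr BSA, and was lower in batch 2 (log2 fold change -1.42).

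Below pyruvate, 5 of 16 genes of the lactate and shuttle steps rose and 4 fell in Ctr, and 4 rose and 4 fell in αGlu, beside 29.5% and 28.3% of all genes (medians 0.06 and 0.09). Ldha, the lactate dehydrogenase subunit kept low in beta cells, went from 48.03 ± 19.4 to 21.8 ± 13.3 CPM in Ctr, which is -1.19 on the log2 scale (SE 0.22, adjusted p = 0.000336 in edgeR), and -1.43 in αGlu. Slc16a3, a lactate exporter, fell as well (-1.13 and -1.65), and Slc16a1, another monocarboxylate transporter, had 0.05 and 0.09. Gpd2 of the glycerol phosphate shuttle fell (-0.31 and -0.43). Got1 of the malate-aspartate shuttle rose by 0.56 and 0.57, and Got2, its mitochondrial partner, by 0.21 and 0.17.

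**Figure D5:**
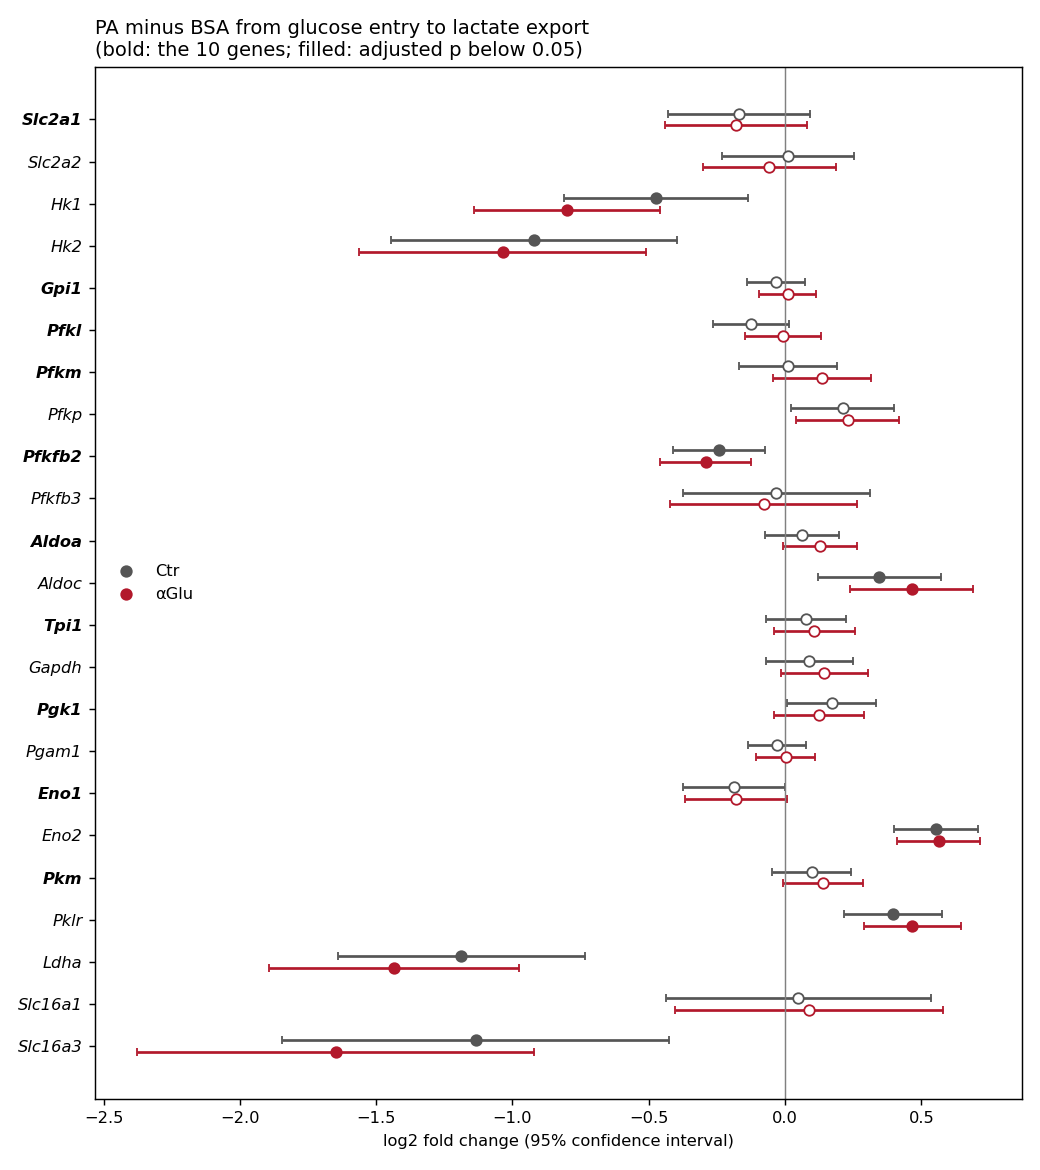
Log2 fold change with PA, with 95% confidence interval, for genes from glucose entry to lactate export in both ASOs; the 10 genes are in bold and filled points passed an adjusted p of 0.05. The 10 genes stay within -0.29 and 0.17, while Hk1, Hk2, Ldha and Slc16a3 lie to the left and Aldoc, Eno2 and Pklr to the right.

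In the side branches of hexose use, 5 of 16 genes rose and 2 fell in each ASO, where 29.5% of all genes passed in Ctr and 28.3% in αGlu (medians 0.10 and 0.14). Sord, which turns sorbitol to fructose, rose by 0.69 and 0.75, H6pd of the endoplasmic reticulum by 0.41 in both, and Pgm1, which joins glycolysis to glycogen, by 0.26 and 0.24. Akr1b3, the aldose reductase, rose by 0.21 and 0.29.

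Of 19 HIF-1 targets outside glycolysis tested, 2 rose and 5 fell in Ctr, and 3 rose and 5 fell in αGlu, beside 29.5% and 28.3% of all genes in either direction (medians -0.09 and -0.16). Car9, a carbonic anhydrase, fell (log2 fold changes of -1.72 and -1.76), and so did Plod2, a collagen lysyl hydroxylase (-1.37 and -1.497), while Ero1l, an oxidase of the endoplasmic reticulum, rose by 0.48 and 0.26 and Bnip3, a mitophagy receptor, by 0.23 and 0.19. Of 13 regulators tested, 4 rose and 3 fell in Ctr and 3 rose and 4 fell in αGlu (medians 0.01 and -0.01). Hif1a rose by 0.24 in Ctr and had 0.08 in αGlu (adjusted p = 0.461 in edgeR), Epas1 (HIF-2 alpha) fell (-1.05 and -0.95), and Ppargc1a, a coactivator of mitochondrial genes, rose by 0.93 and 0.80.

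The list of the glucose-responsive factor ChREBP, its partners and its targets holds Tpi1. Of its 14 genes, 4 rose and 4 fell in Ctr, and 3 rose and 4 fell in αGlu, where 29.5% and 28.3% of all genes passed (medians 0.08 and 0.10). Txnip, a strong target and brake on glucose uptake, fell with PA (log2 fold changes of -0.52 and -0.57), and so did Arrdc4, its relative (-0.27 and -0.35). Both were also lower in batch 2 (-1.252 and -0.64).

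Markers of some other cells moved with PA as well, where 29.5% of all genes passed in Ctr and 28.3% in αGlu. Of 10 endothelial and 10 Schwann cell and glia markers, 0 passed in either ASO, and 2 of 8 ductal markers fell in each. The endothelial list still had median log2 fold changes of -0.60 in Ctr and -0.58 in αGlu, beside 0.01 over all genes. The Schwann cell and glia list had -0.60 and -1.01. Both lists were low, with sums of 18.6 to 65.4 and 23.6 to 157 CPM in Ctr BSA. Of 10 markers of alpha, delta and PP cells, 3 fell in Ctr and 1 in αGlu. Of 10 beta cell markers, 3 rose and 3 fell in Ctr, and 3 rose and 2 fell in αGlu. In Ctr, 7 of 9 fibroblast and stellate cell markers tested fell, with a summed level of 141 to 574 CPM in Ctr BSA and 13.8 to 70.9 CPM in Ctr PA. In αGlu 5 of 9 fell, from 99.6 to 1100 CPM in BSA to 15.5 to 178 CPM in PA. Macrophage markers fell for 5 of 9 in Ctr (82.1 to 359.9 CPM in BSA, 85.3 to 129 CPM in PA) and 1 of 9 in αGlu (94.2 to 174 and 83.0 to 138 CPM). In Ctr their sums were 82.1 to 141 CPM with BSA and 85.3 to 95.6 CPM with PA in batch 1. In batch 2 they were 147 to 359.9 CPM (highest in S21) and 91.7 to 129 CPM. For the difference of PA responses between the ASOs, 0 of 9 macrophage and 0 of 9 fibroblast and stellate cell markers passed. Acinar markers fell for 7 of 10 in Ctr (446 to 24113 CPM in BSA, 237 to 8646 CPM in PA) and 6 of 10 in αGlu (544 to 14648 and 335 to 7809 CPM). Of the fibroblast list, Col1a1, Lum and Pdgfra were at 0 in at least 1 library, and of the macrophage list Adgre1, C1qb, C1qc, Fcgr1 and Mrc1. The part of these cells in the changes of Hk1, Hk2, Ldha, Slc16a3 and the other genes named here was not tested.

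Among themselves, the 10 genes varied together in part. Over the 24 libraries, with log2 CPM centred within each batch, the correlation of each gene with the mean of the other 9 ran from 0.84 for Gpi1, 0.71 for Tpi1, 0.67 for Pfkl and 0.67 for Eno1 down to 0.12 for Pfkm, and was -0.57 for Pfkfb2. The libraries share treatment and depth, so that these values are descriptions. The 5 genes outside the 10 most like their mean were Rpl41 (r = 0.885), Pdcd5 (0.878), Psmc3 (0.870), Ier2 (0.865) and Eif3b (0.859), among 15307 genes compared over 24 libraries.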

How the data were processed

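Poly(A) RNA of cultured mouse islet cells was sequenced in 24 libraries with a stranded kit on an AVITI instrument. The authors deposited 1 table for all libraries, made with the QIAGEN RNA-seq Analysis Portal 5.1 on GRCm38 per the submitters' processing notes; aligner and annotation: not given in the sources used here. Its values are raw read counts per gene, not normalized, and TPM computed by the authors; the deposited RPKM and CPM columns (48) were not used, nor was 1 line without a gene. Samples were grouped by their labels. Nothing in the labels says which libraries share an animal, so p-values measure the spread between libraries. The 10 genes and all lists were chosen with earlier results of these data known.

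Counts were tested in edgeR 4.0.16 (R 4.3.3): TMM scaling, filterByExpr with a minimum count of 10 (15916 of 41549 genes kept), a model of group plus batch over all 24 libraries, robust quasi-likelihood F-tests and Benjamini-Hochberg adjustment over all genes tested, with an adjusted p of 0.05 as threshold. Confidence intervals are 95%. Levels are TMM-scaled CPM; levels between genes are compared in TPM. Named genes outside the 10 were up to 4 of smallest p per list and comparison past the threshold with a mean of at least 10 counts, plus Gapdh, Slc2a2, Ldha, Slc16a1, Hk1, Pfkfb3, Txnip and Hif1a; Slc16a3 was named after its values were seen. One further gene of the rule is not reported here. Alternatives were DESeq2 1.42.0, other scalings and filters, no batch term, fewer libraries, 2 surrogate variables (sva 3.50.0) and each library left out; edgeR without robust estimation was chosen after seeing the data. The fit was checked on simulated counts that held no batch effect, with genes altered in Ctr PA. It found 24% of the genes altered 1.25-fold, 60% at 1.5-fold, 76% at 2-fold and 90% at 4-fold. Small changes would thus mostly be missed.

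Reads of near-identical copies can be misplaced: the second Aldoa entry held 0.0969% of Aldoa reads and the retrogene Eno1b 0.116% of Eno1 reads. Gene locations follow GENCODE on GRCm38 and promoters RefSeq (GRCm38.p6); all 10 genes matched a promoter, and where several start sites exist, the one nearest the annotated 5' end was read.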

Additional observations from a re-analysis of the deposited data

Results flagged for a closer look

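In 2 of 40 sets of 6 libraries (10 genes in 4 groups), 1 library stood apart from the other 5 by Dixon's ratio (above 0.625 for 6 samples), and chance gives about 1 in 20. Aldoa had 599 CPM in library S1 of Ctr BSA, where the other 5 lay between 447 and 503 CPM. Tpi1 had 109 CPM in library S8 of αGlu PA, where the other 5 lay between 94.99 and 100.1 CPM. No difference of PA responses between the ASOs passed a test among the 10 genes.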

How the results depend on the processing

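No paired analysis was possible because the labels number the libraries from 1 to 24 without repeats and do not say which share an animal, although the study's reporting text has all groups of a replicate taken from the same one; a fit that paired them could give other calls. With PA in Ctr, 0 of the 10 genes passed (Pfkfb2 being lost) with library totals alone, without the batch term, with the compared groups alone, with batch 1 alone and under the study's threshold, and 5 passed with 2 surrogate variables; with libraries left out, the count was 0 to 2. In αGlu, 0 passed without the batch term, with batch 1 alone and under the study's threshold, 3 with the compared groups alone (Pfkfb2, Aldoa and Pkm) and 5 with surrogate variables. Between batches, 4 passed with surrogate variables (Tpi1, Pgk1, Eno1 and Pkm, all higher in batch 2) and 0 under the study's threshold. Of the 4, only Pkm was also called higher in the main fit, where Tpi1 and Eno1 were called lower and Pgk1 was not called. The counts in the ASO comparisons and the difference of PA responses were 0 under every alternative run.

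Outside the fit with surrogate variables, signs turned where the value was near 0. In that fit larger values turned too. Tpi1 (adjusted p = 0.00899 in edgeR) and Eno1 (adjusted p = 0.00111), called lower in batch 2 in the main fit, were called higher there. With surrogate variables, the PA response in Ctr became 0.0120 for Slc2a1, 0.0660 for Gpi1 and 0.0218 for Eno1, that in αGlu 0.0132 for Pfkl, and the batch difference 0.155 for Slc2a1, 0.0395 for Gpi1, 0.150 for Pfkl, -0.0173 for Pfkm, -0.198 for Pfkfb2, 0.207 for Aldoa, 0.429 for Tpi1 and 0.603 for Eno1; the 2 variables took 89.1% of the variance of batch. In Ctr, Gpi1 became 0.00361 with library totals, and Pfkm -0.00926 with upper-quartile scaling and -0.00641 with batch 2 alone. In αGlu, Gpi1 became -0.000184 with batch 1 alone and -0.00186 with DESeq2, and Pfkl 0.0433 with batch 2 alone. Pgk1 between batches became -0.00425 with library totals. With each library left out, Gpi1 ran from -0.0580 to 0.00454 in Ctr and from -0.00216 to 0.0277 in αGlu, Pfkm from -0.0428 to 0.0764 in Ctr, and Pfkl from -0.0309 to 0.0220 in αGlu. Tpi1 lost its batch call without S7 (-0.107, adjusted p = 0.056 in edgeR) or S21 (-0.122, adjusted p = 0.0501), and Pfkl gained one without S15 (-0.113, adjusted p = 0.0491). The spread between libraries set the limit: with 6 libraries a group, the confidence intervals of the PA response reached from -0.43 to 0.33 in Ctr.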

Other observations

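Library S23 of Ctr PA had, over the 10 genes, a mean log2 CPM of -0.24 relative to its batch, the lowest of the 24 libraries, and S7 of the same group had 0.12, the highest. Both belong to 1 group, Ctr PA, in which the 10 genes summed to 1173 to 1734 TPM; αGlu PA ran from 1528 to 1752 TPM.

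Pfkfb2 was the gene of the 10 whose level ran against the others between libraries (r = -0.57 with the mean of the other 9), and in S23 it had its highest level of Ctr PA, 164 CPM, where 8 of the 10 had their lowest.

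The hexokinases Hk1 and Hk2 and the lactate genes Ldha, Slc16a1 and Slc16a3 were lower in batch 2 as Slc2a1 was, with log2 fold changes of -0.84, -1.50, -1.16, -1.44 and -0.75, while Slc2a2 was higher by 0.59 and G6pc2 by 0.91. These genes were chosen after their values were seen, and their lists went both ways: in batch 2, 6 of 16 lactate and shuttle genes were higher and 6 lower, and of the 15 other glycolytic enzymes reported 3 were higher and 4 lower, where 51.3% of all genes differed.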
